A study of Mus musculus with 32 samples.

Results

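Old bladders that had received only a control gavage were compared with middle-aged bladders, a contrast of age that holds no untreated old bladder. The samples were chosen by their labelled group: 5 water-gavaged and 4 vehicle-gavaged old bladders were pooled (n = 9) and set against 5 middle-aged bladders, which makes 14 of the 32 bladders of the series. All came from female C57BL/6 mice, and the bulk RNA sequencing libraries each hold total RNA of a single whole bladder. Gavaged mice were 26 months old and had been dosed by mouth on 3 consecutive days each month from 21 to 26 months, with water or with the vehicle of the senolytic arm (60% Phosal 50 PG, 30% PEG-400 and 10% ethanol). The middle-aged mice were 10 months old and received no gavage, so age and gavage cannot be told apart between these groups. The 6 untreated old bladders of 26 months, taken from mice that received no gavage, are used below only as a check on gavage.

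The bladder wall holds a urothelium, a lamina propria of fibroblasts, vessels and nerves, and the detrusor, the smooth muscle that empties the organ under muscarinic control. Resident macrophages are its main leukocytes in health, and lymphocytes are few. With age, B and T cells can gather in non-lymphoid organs into aggregates that use the chemokine CXCL13 and its receptor CXCR5, and plasma cells then secrete immunoglobulin. Peripheral tissues also run a circadian clock, in which BMAL1 (encoded by Arntl) with CLOCK or NPAS2 drives the Per and Cry repressors.

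Counts assigned to genes were 18697996 to 49470890 per gavaged bladder and 30509493 to 36564055 per middle-aged bladder. Levels are given as CPM, counts scaled to the library's size with TMM factors. The floor was set at 3 counts, equal to 0.0606 to 0.1604 CPM in gavaged and 0.0820 to 0.0983 CPM in middle-aged libraries, and covers counting error only. The labelled tissue carried its markers, with 25 urothelial genes summing to 8754 to 10236 CPM in gavaged and 9011 to 10321 CPM in middle-aged bladders, and smooth muscle contractile genes to 40086 to 53917 and 42434 to 57711 CPM. Vehicle-gavaged bladders 1 and 6 stood apart. On the first principal component of the 14 bladders, which held 41.13% of the variance, vehicle 1 lay at 32.457, next to the middle-aged bladders (35.661 to 55.579) and away from the other gavaged bladders (-57.893 to 4.101). Vehicle 6 lay at -74.698 on the second component (13.89%), where the other 13 were between -5.986 and 21.349. With both left out, 2779 genes passed the test in place of 2287. Neither the labels nor the methods name a sequencing batch.

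Gavaged old and middle-aged bladders differed in 2287 of 17363 genes tested (13.2%) by edgeR's quasi-likelihood test at an adjusted p under 0.05. Of these, 1479 (8.52% of those tested) were higher and 808 (4.65%) lower in gavaged old bladders. At least a 2-fold difference was seen in 516 of the higher but only 11 of the lower genes. The median log2 fold change of all genes tested was 0.008. The median summed exon length was 3682 bases for the higher, 4812 for the lower and 3983 for all genes tested, and its part in the calls was not tested. The count was 1516, 1451 and 1428 without middle-aged bladder 2, 4 or 6. The split differed with another test and scaling: limma on log2(TPM + 1), without TMM factors, called 978 higher and 1644 lower, or 37.3% higher in place of 64.7%. For 859 genes (4.95%) the 9 and the 5 bladders did not overlap, 472 of them higher (2.72%) and 387 lower (2.23%).

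**Figure D1:**
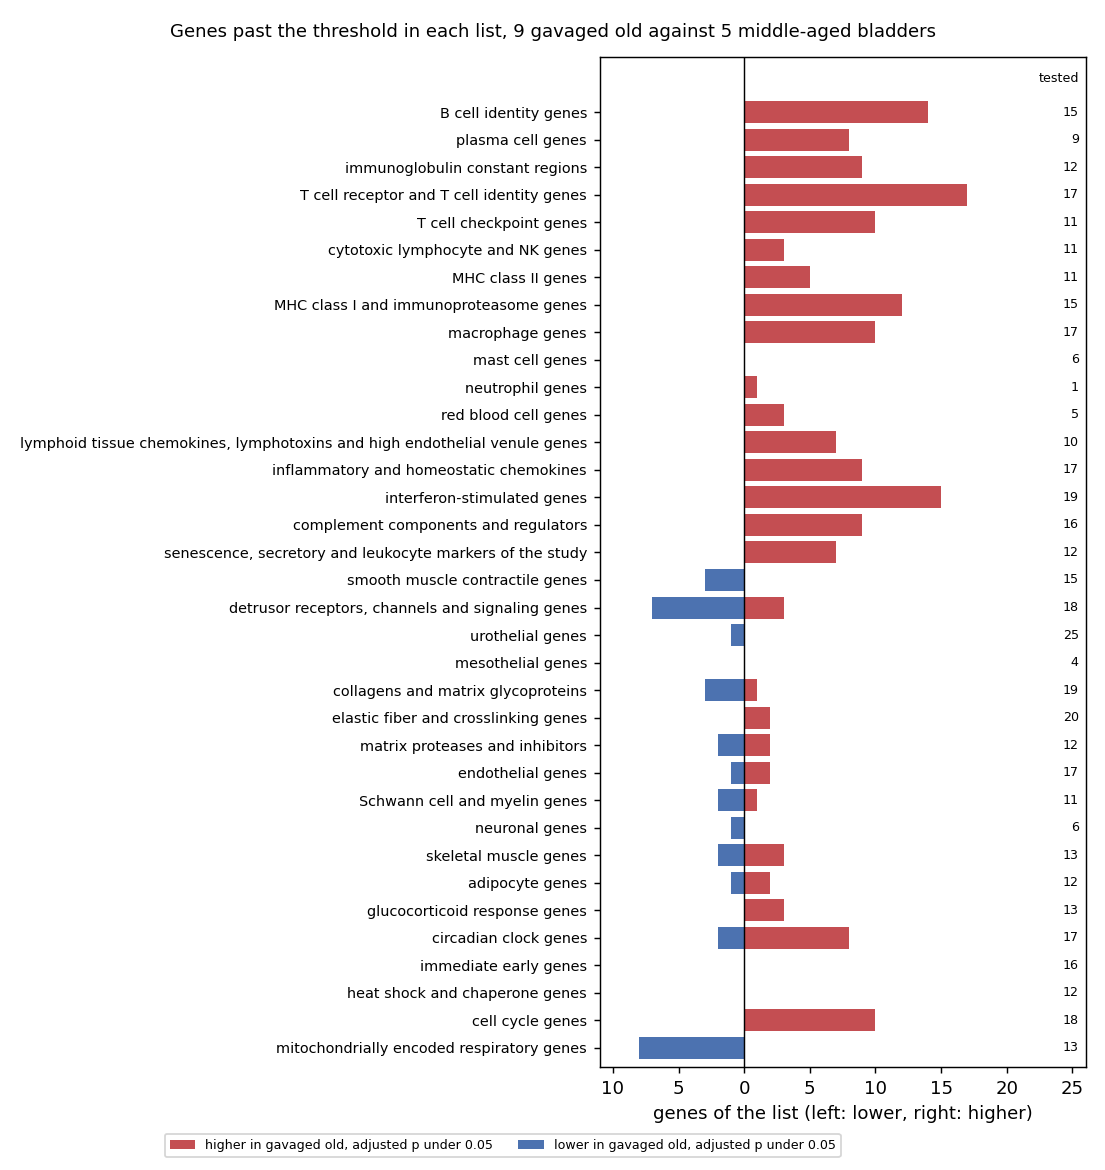
Number of genes in each gene list that passed the test in 9 gavaged old against 5 middle-aged bladders (x axis, genes; bars to the right were higher and to the left lower in gavaged old), with the number tested at the right. Lists that extend to the right only include those of lymphocyte, antigen presentation, interferon, complement, macrophage, chemokine and cell cycle genes. Mitochondrially encoded, smooth muscle contractile, urothelial and neuronal lists extend to the left only.

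Among named genes above a minimum mean level in each group, V, D and J segments aside, B cell genes gave most of the largest rises without overlap. Ctla4, described below, was under that level in middle-aged bladders and was not ranked. Of 15 B cell identity genes, 14 rose, none fell and the median log2 fold change was 4.06; 12 did not overlap between the groups. The remaining gene, Cr2, a complement receptor of mature B cells and follicular dendritic cells, differed by 2.10 on the log2 scale (adjusted p = 0.0702). Over all alternative settings, 10 to 15 genes of the list rose, with medians of 2.74 to 4.45. In bulk tissue, fewer cells of a type and less RNA per cell cannot be told apart, nor can more cells and more RNA.

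Ms4a1 (chr19:11249675-11266241, mm10) encodes the B cell surface protein CD20. Its levels in the 5 middle-aged bladders were 0.36, 0.445, 1.27, 0.424 and 1.43 CPM, and in the 9 gavaged bladders they ran from 5.53 over a median of 13.3 to 78.4 CPM. Every gavaged bladder was above every middle-aged one, and the log2 fold change was 5.23 ± 0.89 (SE, adjusted p = 0.00212). The gavaged bladders themselves spread widely: water 2, water 4 and vehicle 4 stood at 78.4, 51.9 and 74.6 CPM, and the other 6 at no more than 14.9 CPM.

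Cxcr5 (chr9:44511787-44561877), the follicle-homing receptor of B and follicular helper T cells, stood at 0.36, 0.318, 0.664, 0.0848 and 0.276 CPM in middle-aged bladders. In gavaged bladders it ran from 2.38 to 30.3 CPM with a median of 6.99, again without overlap, and the log2 fold change was 5.25 ± 0.90 (adjusted p = 0.00224). The gene overlaps Bcl9l on the other strand, and the strand setting of the counting is not given in the sources used here. The lineage factor Pax5 (4.88), the receptor for IgM Fcmr (4.80) and the B cell receptor chain Cd79a (4.77) rose by similar amounts to Cxcr5. So did the transcription factor Spib (4.73), the transcriptional coactivator Pou2af1 (4.57) and Tnfrsf13c, the receptor for the survival factor BAFF (4.37).

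**Figure D2:**
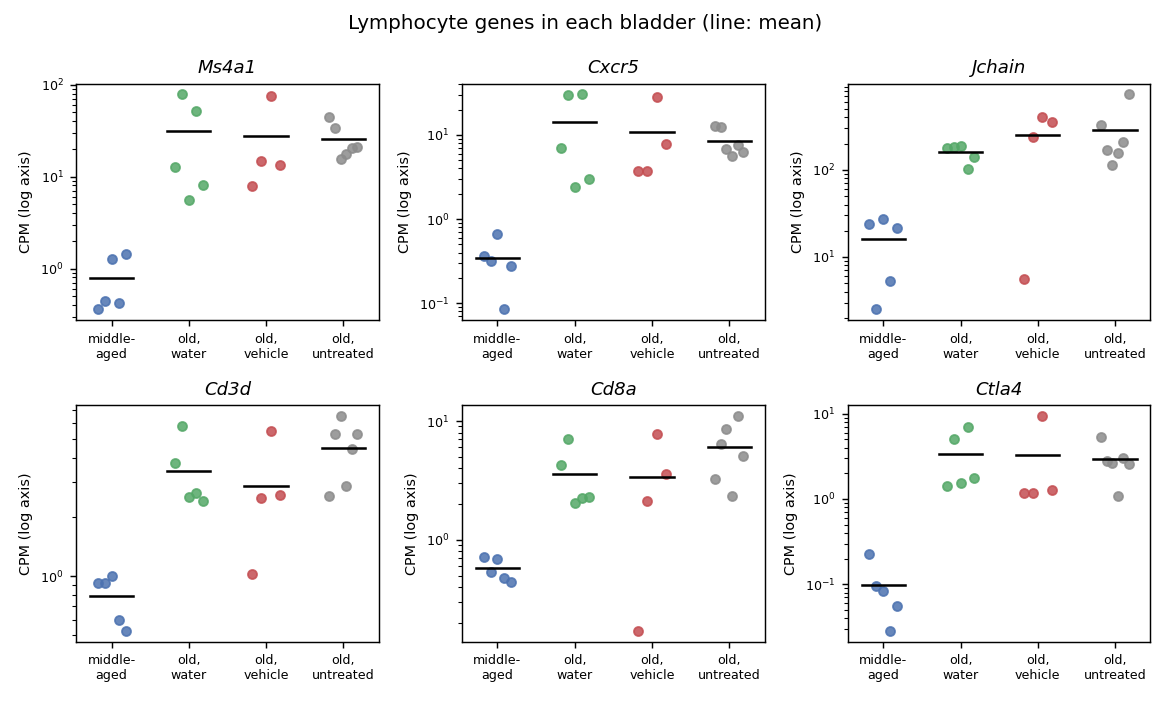
Level of 6 lymphocyte genes in each bladder (y axis, CPM on a log scale) for middle-aged, water-gavaged old, vehicle-gavaged old and untreated old bladders, with 1 point per bladder. Ms4a1, Cxcr5 and Ctla4 separate all gavaged from all middle-aged bladders, whereas for Jchain and Cd8a the vehicle-gavaged bladder 1 lies among or below the middle-aged ones.

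Plasma cell and immunoglobulin genes followed with more scatter. Of 9 plasma cell genes tested, 8 rose (median log2 fold change 1.54), among them Mzb1 (4.44), an endoplasmic reticulum co-chaperone of antibody assembly, and Derl3 (2.84), a component of endoplasmic reticulum-associated degradation. Of 12 immunoglobulin constant region genes tested, 9 rose (median 4.28). With the test limited to genes that held at least 10 counts in every bladder, 5 rose. That filter removes genes with few middle-aged counts before testing, such as Ighe and Ighg2b, so these counts cover different genes. Jchain, which joins IgA dimers and IgM pentamers, stood at 23.8, 2.51, 27.0, 5.34 and 21.5 CPM in middle-aged and from 5.58 to 403 CPM (median 183) in gavaged bladders. The groups overlapped through vehicle 1, the bladder at 5.58 CPM, and the log2 fold change was 3.65 ± 0.76 (adjusted p = 0.00633).

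Ighm, the IgM heavy chain, showed the same exception: 246, 41.2, 227, 65.3 and 246 CPM in middle-aged bladders, 118 CPM in vehicle 1 and up to 6240 CPM (median 3010) over the gavaged bladders (log2 fold change 4.22 ± 0.74, adjusted p = 0.00246). Ighe, the IgE heavy chain, had no count in any middle-aged bladder, so no fold is given. Of 380 immunoglobulin V, D and J segments in the annotation, 139 had enough counts to be tested, and 70 rose while none fell. Their summed level was 15.93 to 171.1 CPM in middle-aged bladders, 1107 to 2008 CPM in water-gavaged and 61.86 to 3387 CPM in vehicle-gavaged bladders. Between 19 and 93 segments were above 3 counts in a middle-aged bladder, and between 64 and 191 in a gavaged one, so the rise was spread over many segments. Near-identical segments share reads, and single segments are not named.

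Genes of lymphoid tissue organization rose with them. Of 10 such genes tested out of 13, 7 rose (median log2 fold change 2.42), but 4 without middle-aged bladder 2 and 4 without middle-aged bladder 4. Over all alternative settings the higher calls ranged from 3 to 8, with at most 1 lower. Cxcl13, the B cell chemoattractant that binds CXCR5, stood at 2.75, 2.54, 3.74, 2.35 and 6.15 CPM in middle-aged and from 2.95 to 43.9 CPM (median 16.1) in gavaged bladders. The lowest gavaged bladders overlapped the middle-aged ones (log2 fold change 2.67 ± 0.65, adjusted p = 0.0145). Ltb, a lymphotoxin chain needed for lymphoid organ formation, rose by 2.82 (adjusted p = 0.00233). Glycam1, a product of high endothelial venules, was at 0 to 0.607 CPM in middle-aged bladders and rose by a fitted 5.00 (adjusted p = 0.0216), a value that rests on few middle-aged counts. Ccl19 and the other genes of the lists with too few counts to be fitted were tested singly by a two-sided exact permutation test of log2(CPM + 0.1), 28 tests in all. None passed after adjustment, and Ccl19, a T cell zone chemokine, gave an exact p of 0.016 (adjusted p = 0.448).

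All 17 T cell receptor and T cell identity genes rose, with a median log2 fold change of 1.81, and 8 of them did not overlap. Cd3d, a chain of the CD3 complex, stood at 0.917, 0.922, 0.997, 0.594 and 0.524 CPM in middle-aged bladders. In gavaged bladders it ran from 1.02 to 5.79 CPM with a median of 2.58, just clear of the middle-aged range (log2 fold change 2.03 ± 0.36, adjusted p = 0.00277). Cd8b1 (2.89) and Cd8a (2.63), which form the co-receptor of cytotoxic T cells, and Cd6 (2.68) and Cd5 (2.64), T cell surface receptors, rose most among the list. Cd8a was at 0.721, 0.541, 0.692, 0.481 and 0.441 CPM in middle-aged bladders and from 0.171 to 7.77 CPM (median 2.30) in gavaged ones. Vehicle 1, at 0.171 CPM, was below all 5 middle-aged bladders, and Cd8a passed over the 9 gavaged bladders (adjusted p = 0.0106) but not in vehicle-gavaged bladders alone (adjusted p = 0.0697).

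T cell checkpoint genes, mostly receptors that restrain activated T cells, rose in 10 of 11 tested (median 1.72). Ctla4 (chr1:60887000-60915832) was near the floor in middle-aged bladders, at 0.229, 0.0954, 0.083, 0.0283 and 0.0552 CPM. Gavaged bladders held 1.17 to 9.36 CPM with a median of 1.56 and no overlap; the fitted log2 fold change was 5.10 ± 0.80 (adjusted p = 0.00145). Tigit (3.99), Pdcd1, which encodes PD-1 (2.89), and Btla (2.28), all inhibitory receptors, rose as well, as did Icos, a co-stimulatory receptor (1.72), and Foxp3, the factor of regulatory T cells (1.72).

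Cytotoxic and NK genes did not move as a block: 3 of 11 rose, and the median was 0.16. The 3 were Gzmk, a granzyme of memory CD8 T cells (3.31), the chemokine Ccl5 (2.00) and the granule protein Nkg7 (1.52). The granzymes Gzma (-0.57) and Gzmb (-0.34), and Ncr1 (-0.53) and Klrb1c (-0.43), receptors of NK cells, did not pass and had negative values. T cell receptor segments rose in 3 of 7 tested out of 255, with a summed level of 19.41 to 21.91 CPM in middle-aged and 20.68 to 36.78 CPM in gavaged bladders.

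Summed over each list, B cell identity genes reached 66.85 to 627.2 CPM in gavaged against 14.48 to 25.42 CPM in middle-aged bladders, and T cell genes 35.72 to 169.3 against 25.22 to 30.79 CPM. Neither sum overlapped. Macrophage genes did not overlap either, at 741.9 to 1125 against 613.2 to 711.2 CPM, but their distance was far smaller. Mast cell genes gave no call in 6 tested by edgeR, with 1 at an unadjusted p under 0.05 (median log2 fold change -0.34). Neutrophil genes mostly lacked counts, with 1 of 7 tested and that gene higher. Of 5 red blood cell genes, 3 rose (median 0.59), and the count was 0 with all 6 groups of the series in the fit and 5 without middle-aged bladder 1. Their part in the other results was not tested.

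Antigen presentation genes rose in both classes. Among genes of MHC class I and the immunoproteasome, which display peptides to CD8 T cells, 12 of 15 rose (median 0.58), including H2-Q7 (1.16), H2-Q6 (1.03), Psmb8 (0.88), Psmb9 (0.74) and the classical heavy chain H2-K1 (0.58). H2-Q6 and H2-Q7 are near-identical copies, so reads between them may be split. Among MHC class II genes, which display peptides to CD4 T cells, 5 of 11 rose (median 0.60): H2-Eb2 (3.67), H2-Ob (2.56), H2-DMb2 (2.50), H2-Oa (1.73) and the class II transactivator Ciita (1.02, adjusted p = 0.0479). H2-Ob and H2-Oa form H2-O, a peptide loading modulator typical of B cells. The abundant H2-Aa (0.46, adjusted p = 0.178), H2-Ab1, H2-Eb1 and the invariant chain Cd74 (0.56) did not pass. This list leaned on single libraries: without vehicle 1, 9 of 11 rose, and without middle-aged bladder 1, 2, 5 or 6 it was 3.

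Interferon-stimulated genes rose in 15 of 19 tested (median 0.51), or in 7 without middle-aged bladder 6. Zbp1, a sensor of Z-form nucleic acids, stood at 4.42, 4.39, 4.84, 4.52 and 3.89 CPM in middle-aged bladders and from 5.27 to 17.5 CPM (median 9.04) in gavaged ones, without overlap (log2 fold change 1.17 ± 0.22, adjusted p = 0.00335). Oas1a, which senses double-stranded RNA (0.98), the interferon regulatory factor Irf7 (0.69) and Ifit1, which binds viral RNA (0.67), rose less.

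Complement and macrophage genes showed small median rises. C4b (chr17:34728380-34743882), the C4 component of the classical pathway, stood at 147, 168, 164, 153 and 152 CPM in middle-aged bladders. In gavaged bladders it ran from 251 to 388 CPM with a median of 295, so that all 9 were clear of the middle-aged range (log2 fold change 0.96 ± 0.09, adjusted p = 7.52e-05). Among complement genes, 9 of 16 tested rose (median 0.53), with C3, on which all pathways converge, at 0.91 (adjusted p = 0.0038), and C1qb (0.79) and C1qa (0.75), chains of the C1q recognition protein that macrophages make.

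Of 17 macrophage genes, 10 rose (median 0.34). Trem2, a lipid-sensing receptor, rose from 2.21 to 3.15 CPM in middle-aged to 4.53 to 6.41 CPM in gavaged bladders (log2 fold change 0.96 ± 0.11, adjusted p = 0.000293), and the lysosomal Cd68 rose by 0.75. Adgre1, which encodes the pan-macrophage marker F4/80, differed by 0.27 and did not pass (adjusted p = 0.245). Chemokines rose in 9 of 17 tested (median 0.82). Ccl8, a monocyte attractant, rose from 5.2 to 7.89 CPM to 13.1 to 57.9 CPM (log2 fold change 2.35 ± 0.29, adjusted p = 0.000361), and the interferon-gamma-induced Cxcl9 (2.98), the monocyte attractants Ccl12 (1.70) and Ccl2 (1.14), and Ccl5 (2.00), named above, also rose.

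The study followed 16 markers of senescence, its secretory products and leukocytes, the last being Adgre1 and Itgam, and 12 could be tested. Of these 7 rose (median 0.97), or 4 without middle-aged bladder 2. Cdkn2a (chr4:89274471-89294653), which encodes the cell cycle inhibitor p16 and ARF, stood at 1.05, 0.922, 0.72, 0.735 and 0.717 CPM in middle-aged and from 1.22 to 2.13 CPM (median 1.47) in gavaged bladders. There was no overlap, and the log2 fold change was 0.99 ± 0.18 (adjusted p = 0.00289). Cdkn1a, which encodes p21, did not pass (-0.08, adjusted p = 0.47). Il10, an anti-inflammatory cytokine (2.54), Mmp3, the protease stromelysin-1 (1.90 ± 0.27, adjusted p = 0.000797), Tnf (1.26, adjusted p = 0.0302), the chemokine Ccl3 (1.13) and Tgfb1 (0.29) rose with Cdkn2a and Ccl2. Il1b (0.96, adjusted p = 0.0675) and Ptgs2, which encodes cyclooxygenase 2 (0.78, adjusted p = 0.0649), did not pass. The 14 genes that the study picked for a change with age all passed, 5 higher and 9 lower, but they had been chosen on untreated old bladders against these same middle-aged bladders and are not independent evidence of direction.

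The structural genes of the wall moved little. Of 15 smooth muscle contractile genes, none rose and 3 fell (median -0.07): Smtn (-0.28), Lmod1 (-0.24) and Mylk (-0.17), which encode smoothelin, leiomodin 1 and myosin light chain kinase. Without middle-aged bladder 4, 1 fell. Smooth muscle actin Acta2 differed by 0.00 (adjusted p = 0.988). Of 25 urothelial genes 1 fell, the tight junction gene Cldn8 (-0.27, adjusted p = 0.00238), and the median was 0; the uroplakin Upk1a stood at -0.09, and the basal keratin Krt14 at 2.03 without passing (adjusted p = 0.101). No mesothelial gene of 4 passed by edgeR, adjusted or unadjusted.

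Detrusor receptors, channels and signaling genes were mixed, with 3 of 18 higher and 7 lower (median -0.17). Rgs2, which shortens signaling through Gq-coupled receptors, stood at 299, 297, 408, 242 and 365 CPM in middle-aged and from 106 to 254 CPM (median 201) in gavaged bladders, with a slight overlap (log2 fold change -0.83 ± 0.19, adjusted p = 0.0105). Chrm2, the M2 muscarinic receptor and the more abundant muscarinic subtype of the detrusor, was at 27.0, 33.4, 27.9, 22.9 and 25.9 CPM in middle-aged bladders. It ran from 29.9 to 57.0 CPM (median 35.9) in gavaged bladders, overlapping through middle-aged bladder 2, and rose by 0.63 on the log2 scale (adjusted p = 0.0158). Chrm3, the M3 subtype that drives contraction, differed by 0.06 (adjusted p = 0.84). The potassium channel genes Kcnq5 (-0.42) and Kcnmb1 (-0.18), the calcium channel subunit Cacnb2 (-0.36), the phosphodiesterase Pde5a (-0.33) and the ATP receptor P2rx1 (-0.26) fell. Ano1, a calcium-activated chloride channel (0.17), rose. The 3 higher calls dropped to 1 without water 2 or middle-aged bladder 2, and to 0 without middle-aged bladder 6.

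Matrix genes showed no general rise. Of 19 collagen and matrix glycoprotein genes, 1 rose and 3 fell (median -0.10): Col12a1 rose (0.46), and the small proteoglycans Lum (-0.47) and Dcn (-0.21) and the basement membrane collagen Col15a1 (-0.33) fell. Col1a1, the main fibrillar collagen, differed by -0.12 (adjusted p = 0.272). Of 20 elastic fiber genes, Ltbp2 (0.81) and Fbln2 (0.29) rose, and elastin, Eln, differed by -0.24 (adjusted p = 0.0515). Among 12 proteases and inhibitors, 2 rose and 2 fell.

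Mmp14 (chr14:54431612-54445364), a membrane-bound collagenase that activates MMP2, fell with little spread in either group: 344, 322, 338, 319 and 345 CPM in middle-aged and 216 to 264 CPM (median 229) in gavaged bladders. No bladder of either group entered the range of the other (log2 fold change -0.50 ± 0.04, adjusted p = 7.52e-05). Mmp2 itself, a gelatinase, fell by 0.42 (adjusted p = 0.000793). Mmp12, the macrophage elastase, rose by 2.81 from 0.17 to 0.491 CPM to 0.811 to 5.63 CPM (adjusted p = 0.00186).

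Among named genes above the minimum mean level, Adamts4, Aplnr and Arntl gave the largest falls without overlap. Adamts4, an aggrecanase, stood at 6.58, 6.93, 4.93, 4.35 and 4.38 CPM in middle-aged and from 1.28 to 3.94 CPM (median 1.88) in gavaged bladders, with no overlap (log2 fold change -1.34 ± 0.23, adjusted p = 0.00248). It overlaps another gene on the other strand, and in vehicle-gavaged bladders alone it did not pass (-1.0, adjusted p = 0.0511). Aplnr (chr2:85136225-85139923), the endothelial receptor of apelin, was at 10.6, 9.79, 9.94, 11.4 and 12.4 CPM in middle-aged and from 2.61 to 6.50 CPM (median 4.32) in gavaged bladders. All 9 were below all 5 (log2 fold change -1.27 ± 0.18, adjusted p = 0.000793).

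Galr2 (chr11:116280939-116283938), a receptor of the neuropeptide galanin, stood at 9.24, 7.76, 9.83, 8.62 and 10.6 CPM in middle-aged and from 3.21 to 6.04 CPM (median 4.87) in gavaged bladders (log2 fold change -0.92 ± 0.12, adjusted p = 0.000629). Gdf5, a bone morphogenetic protein family ligand, was low in both groups, at 0.884 to 1.56 against 0.343 to 0.776 CPM, and fell by 0.96 (adjusted p = 0.0139). The rest of the 12 largest falls without overlap were ranked above the same minimum mean level. They were Tmem61 (-0.94), Asb4 (-0.88), Rnf17 (-0.88), Rab3c, a vesicle GTPase (-0.84), and the ubiquitin ligase Rnf152 (-0.79). The amino acid transporter Slc38a4 (-0.77), the cadherin Cdh6 (-0.77) and Arntl, described with the clock genes, completed the ranking.

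Aplnr was the 1 gene of 17 endothelial genes that fell. Vwf, the von Willebrand factor, rose from 84.4 to 98.4 CPM to 105 to 126 CPM without overlap (log2 fold change 0.37 ± 0.05, adjusted p = 0.000629), and Eng, a TGF-beta co-receptor, rose by 0.19. Pecam1, the pan-endothelial marker, differed by -0.09 without passing, and the summed level of the list was 656.6 to 724.1 CPM in gavaged and 659.5 to 734.7 CPM in middle-aged bladders. Of 11 Schwann cell and myelin genes 1 rose, Mag (0.96), and 2 fell, among them S100b (-0.35). Galr2 was the 1 fall among 6 neuronal genes. Adipocyte genes gave 2 higher calls, the fatty acid binding protein Fabp4 (0.29) and the carbonic anhydrase Car3 (0.42), and 1 lower, the lipid droplet gene Plin4 (-0.24), in 12 tested.

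Skeletal muscle genes, a check on tissue beside the bladder, gave 3 higher and 2 lower calls of 13 (median -0.02), and their summed level was 388.9 to 599.5 CPM in gavaged and 502.4 to 822.6 CPM in middle-aged bladders. Over all alternative settings, the calls ranged from 0 to 4 higher and 0 to 2 lower. Ckm, the muscle creatine kinase, differed by -0.24. The higher calls were Scn4a, the skeletal myosin gene Myh2 and the troponin gene Tnni2. Myh2 held 85 to 425 counts in middle-aged and 203 to 1683 counts in gavaged bladders, with overlap. Scn4a, the sodium channel of skeletal muscle, rose by 3.81 ± 0.87 (adjusted p = 0.0101), from 0.223 to 0.689 CPM in middle-aged to 0.965 to 14.7 CPM (median 1.74) in gavaged bladders, without overlap.

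Clock genes changed in both directions, with 8 of 17 higher and 2 lower (median 0.40). Arntl (chr7:113207465-113314126), the positive arm of the clock, stood at 14.9, 19.4, 11.2, 12.2 and 13.6 CPM in middle-aged and from 4.38 to 8.16 CPM (median 6.81) in gavaged bladders. Its partner Npas2 was at 10.7, 14.1, 11.2, 10.8 and 11.2 CPM in middle-aged and from 5.94 to 8.04 CPM (median 6.91) in gavaged bladders. Neither gene overlapped, and the log2 fold changes were -1.14 ± 0.18 (adjusted p = 0.00148) and -0.68 ± 0.10 (adjusted p = 0.000799).

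Of the repressors, those that passed moved the other way. Per2 was at 65.0, 56.4, 74.3, 87.3 and 78.5 CPM in middle-aged and from 96.8 to 177 CPM (median 124) in gavaged bladders, a rise of 0.87 ± 0.14 on the log2 scale (adjusted p = 0.00173). Ciart, which encodes the repressor CHRONO, was at 9.33, 6.93, 12, 12.5 and 12.5 CPM in middle-aged and from 15.3 to 28.5 CPM (median 20.9) in gavaged bladders, a rise of 1.02 ± 0.18 (adjusted p = 0.00235). For both, all 9 gavaged bladders were above all 5 middle-aged ones. Per3 (0.40), a further repressor, the PAR-domain factors Dbp (0.43) and Tef (0.40) and the repressors Bhlhe40 (0.50) and Bhlhe41 (0.46) also rose. Clock (-0.29, adjusted p = 0.0556), Per1 (0.54, adjusted p = 0.113), Cry1, Cry2, Nr1d1, Nr1d2 and Hlf did not pass. Clock transcripts swing over the day, and the hour of harvest is not given in the sources used here.

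The BMAL1 complex binds the E-box CACGTG, and the ROR and REV-ERB receptors bind an element with the core TAGGTCA. Both strands of the RefSeq promoter windows (GRCm38.p6, 250 bases before to 50 after each start) were searched for these letters. The E-box reads the same on both strands, and the 2 motifs share no overlap. Of all 32851 windows, 7.15% held the E-box and 2.61% the ROR core, and of the 27025 genes with a window 8.09% and 2.97% had one that did. A window was found for 14 of the 17 clock genes: the E-box stood in 3 of the 5 that rose, in 0 of the 2 that fell and in 2 of the 7 that did not pass, and the ROR core in 1 of the 2 that fell and in none of the others. Per2 and Bhlhe40 were among those with no window in the table. A match is a description of these letters and not a binding site. The 2 stretches below, with the motif in capitals, are shown because their genes gave the largest rise and the largest fall of the list. The first is the 250 bases before the Ciart start on the minus strand (chr3:95882229-95882478, mm10), with 3 E-boxes. The second is 30 bases of the Arntl window on the plus strand (chr7:113207519-113207548), where the ROR core begins 30 bases after the RefSeq start of that window, 1 of 2 for the gene, which is not the annotated gene start given above.
Ciart: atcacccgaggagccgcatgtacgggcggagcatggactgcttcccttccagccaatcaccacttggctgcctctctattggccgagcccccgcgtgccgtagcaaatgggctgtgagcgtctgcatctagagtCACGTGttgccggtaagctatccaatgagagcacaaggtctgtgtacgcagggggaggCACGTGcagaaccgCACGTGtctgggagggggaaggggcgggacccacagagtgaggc
Arntl: gacatttagggaaggcagaaagTAGGTCAg

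**Figure D3:**
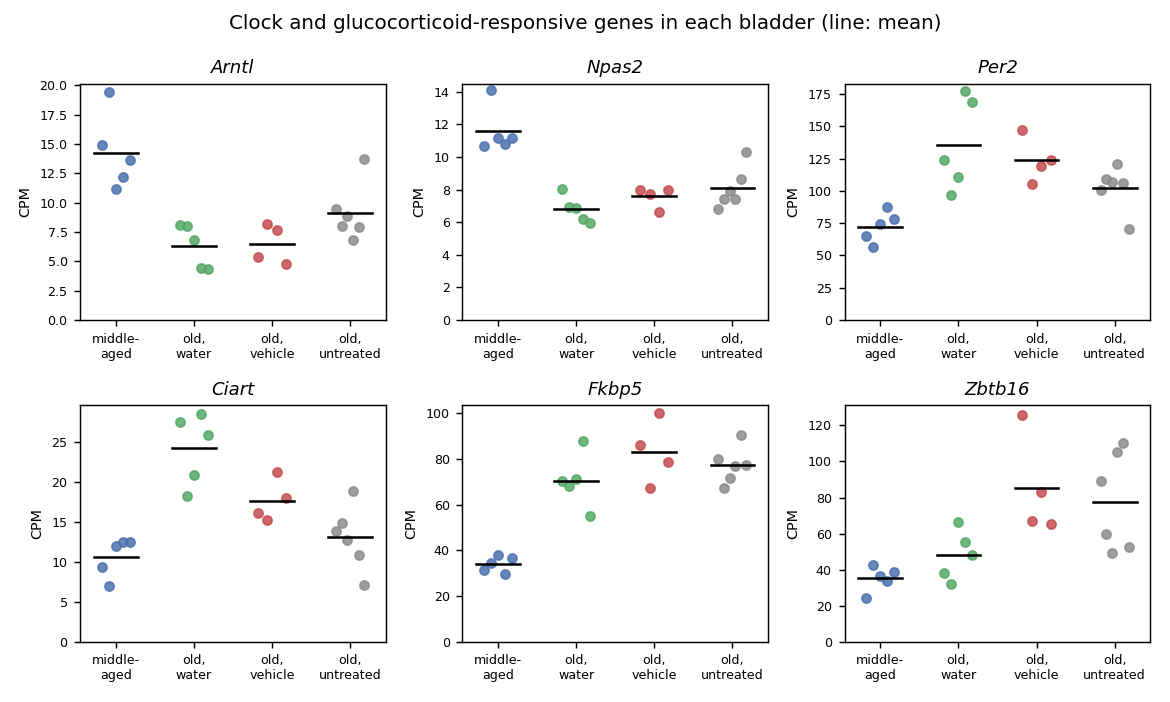
Level of 4 clock genes and 2 glucocorticoid-responsive genes in each bladder (y axes, CPM from 0), with 1 point per bladder and a line at the group mean. Arntl and Npas2 are lower and Per2, Ciart and Fkbp5 higher in every gavaged bladder than in any middle-aged one, and the untreated old bladders are drawn beside them.

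Of 13 glucocorticoid-responsive genes, 3 rose (median 0.27). Fkbp5, a co-chaperone of the glucocorticoid receptor and one of its direct targets, stood at 31.5, 34.4, 37.8, 29.6 and 36.5 CPM in middle-aged and from 54.9 to 100 CPM (median 71.2) in gavaged bladders, with no overlap (log2 fold change 1.18 ± 0.12, adjusted p = 8.25e-05). The transcription factor Zbtb16 (0.90, adjusted p = 0.0328) and Tsc22d3, which encodes GILZ (0.83, adjusted p = 0.0178), rose, and Nr3c1, the receptor gene itself, differed by -0.01. The list gave 1 call without middle-aged bladder 2 or 4. In the untreated old bladders, whose mice were not gavaged, Fkbp5 was at 67.2 to 90.7 CPM, within the range of the gavaged ones. None of 16 immediate early genes and none of 12 heat shock genes passed by edgeR, with 3 and 2 at an unadjusted p under 0.05.

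Cell cycle genes rose in 10 of 18 (median 0.81), among them Ccnb1, the mitotic cyclin B1 (1.46), the kinetochore motor Cenpe (1.31), the mitotic kinase Aurkb (1.13), the replication helicase subunit Mcm5 (0.88) and Rrm2, a subunit of ribonucleotide reductase (0.88). Mki67, the proliferation marker Ki-67, stood at 5.60, 6.65, 2.91, 4.35 and 3.81 CPM in middle-aged and from 4.14 to 30.0 CPM (median 13.5) in gavaged bladders. The groups overlapped (log2 fold change 1.69 ± 0.42, adjusted p = 0.0152). The count was 6 without middle-aged bladder 1 and 5 without middle-aged bladder 4, 5 or 6. Over all alternative settings it ranged from 4 to 13.

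Mitochondrially encoded respiratory genes fell in 8 of 13 (median -0.37), or 5 without middle-aged bladder 4 or 6. Their summed level was 20828 to 28144 CPM in gavaged and 27377 to 32645 CPM in middle-aged bladders. The lowest sums were in water 1 (20828 CPM) and vehicle 6 (21129 CPM), the gavaged libraries with the fewest counts (18697996 and 21252772). Whether depth had a part was not tested. The complex I subunit mt-Nd6 was at 1170, 1210, 1110, 924 and 1120 CPM in middle-aged and from 710 to 883 CPM (median 839) in gavaged bladders, without overlap (log2 fold change -0.42 ± 0.06, adjusted p = 0.00112). It shares bases with mt-Nd5 on the other strand. The complex I subunit mt-Nd2 fell by 0.42 (adjusted p = 0.00233), and mt-Atp8, a short subunit of ATP synthase, by 1.66 (adjusted p = 0.0104).

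Each control gavage was then set against the middle-aged bladders alone, the 2 comparisons sharing those 5 bladders. Water-gavaged bladders differed in 2257 of 17023 genes (13.3%), with 1366 higher (8.02%) and 891 lower (5.23%), and vehicle-gavaged bladders in 780 of 17162 (4.54%), with 519 higher (3.02%) and 261 lower (1.52%). Without vehicle 1 the second count was 1759, 487 without vehicle 2 and 492 without vehicle 6, and without any 1 middle-aged bladder it was 182 to 444. Between vehicle-gavaged and water-gavaged bladders themselves, no gene of 17294 passed by edgeR or by DESeq2, and 322 (1.86%) had an unadjusted p under 0.05. With 4 and 5 bladders this does not show that the gavages act alike.

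Values for genes chosen on the pooled bladders are given side by side. Ms4a1 differed from middle-aged by 5.30 after water and 5.13 after vehicle on the log2 scale, Cxcr5 by 5.41 and 5.00, Ctla4 by 5.12 and 5.08, C4b by 0.90 and 1.01 and Ccl8 by 2.36 and 2.32. Among the falls, Galr2 gave -0.94 and -0.91, Aplnr -1.42 and -1.12 and Arntl -1.17 and -1.11. Zbtb16 passed after vehicle (1.29, adjusted p = 0.0108) and not after water (0.46, adjusted p = 0.136), and the mast cell protease Mcpt4 fell after vehicle (-1.25, adjusted p = 0.0227) with 0.00 after water (adjusted p = 0.991). Neither passed in the direct comparison of vehicle with water.

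Calls after vehicle were fewer in many of the lists, as they were over all genes, and 3 lists are given as examples. Not every list followed, and complement genes gave 7 higher calls after water and 8 after vehicle. After water 15 of 15 B cell genes, 17 of 17 T cell genes and 14 of 15 MHC class I genes rose. After vehicle these were 13, 11 and 0, with medians of 4.23, 1.83 and 0.56 against 3.98, 1.87 and 0.59 after water. Of the 15 MHC class I genes, 12 had an unadjusted p under 0.05 after vehicle by edgeR.

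**Figure D4:**
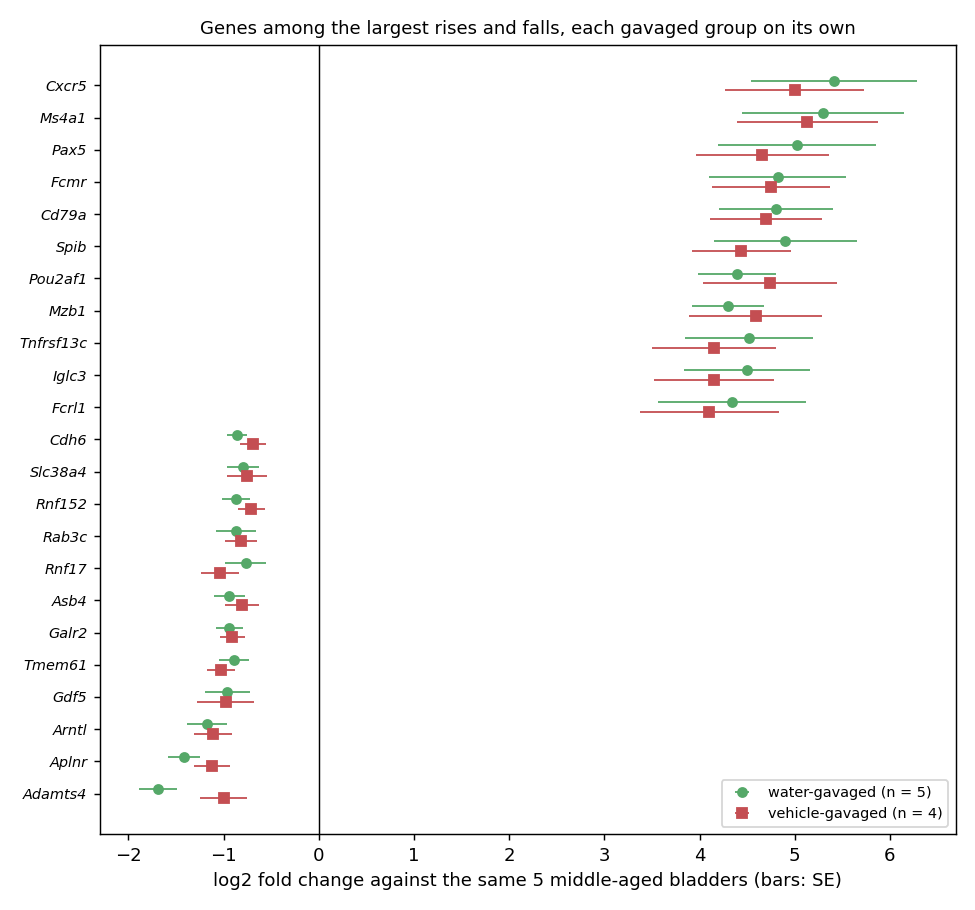
Log2 fold change against the same 5 middle-aged bladders (x axis, error bars 1 SE) of genes among the largest rises and falls without overlap, for water-gavaged (n = 5) and vehicle-gavaged (n = 4) old bladders. The ranking held only genes above a minimum mean level in each group. Ms4a1 lies at 5.30 and 5.13 and Galr2 at -0.94 and -0.91, and the shared side of 0 follows from choosing the genes on the pooled 9 bladders.

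Gavaged old bladders were last compared with the 6 untreated old bladders of the same age, a comparison of gavage without the difference in age. Here 135 of 17379 genes passed (0.777%), 82 higher (0.472%) and 53 lower (0.305%) in gavaged bladders, and 2352 (13.5%) had an unadjusted p under 0.05. None of 15 B cell, 17 T cell, 19 interferon-stimulated and 16 complement genes passed by edgeR, with 0, 6, 8 and 4 at an unadjusted p under 0.05. Their median log2 fold changes were 0.23, -0.58, -0.27 and -0.14, and 0 of the T cell and 0 of the interferon-stimulated genes had a value above 0. The summed B cell genes were 135.1 to 352.3 CPM in untreated and 66.85 to 627.2 CPM in gavaged old bladders, and the immunoglobulin segments 893 to 7274 CPM in untreated old bladders. Cdkn2a was at 0.861 to 1.47 CPM in untreated old bladders. That range overlapped both the middle-aged (0.717 to 1.05 CPM) and the gavaged bladders (1.22 to 2.13 CPM). The difference between gavaged and untreated old bladders (0.63) did not pass (adjusted p = 0.0963). Bcl11b, a T lineage transcription factor outside the lists, was lower in gavaged bladders (-0.70, adjusted p = 0.0223).

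Ribosomal protein genes made up most of the rises, a list that was formed after these values had been seen. Of 78, 51 rose against untreated old (median 0.19), and 43 rose against middle-aged bladders (median 0.14), where all 78 values were above 0. Rpl36 was at 310, 275, 300, 305 and 274 CPM in middle-aged, 239 to 285 CPM in untreated old and 324 to 356 CPM (median 331) in gavaged bladders. Gavaged bladders thus stood above both other groups, by 0.33 against untreated old (adjusted p = 0.000789) and 0.22 ± 0.04 against middle-aged (adjusted p = 0.00275). The 78 genes summed to 36357 to 40911 CPM in middle-aged, 34635 to 38470 CPM in untreated old and 39871 to 44242 CPM in gavaged bladders. The highest sums were in water 1 (43624 CPM) and vehicle 6 (44242 CPM), the gavaged libraries with the fewest counts, and the part of depth was not tested. The higher calls against middle-aged were 19 without middle-aged bladder 2, 21 without middle-aged bladder 6 and 3 with all 6 groups of the series in the fit. Against untreated old, no gene passed in that last fit, ribosomal or other.

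The median summed exon length was 5463 bases for the 53 lower, 1914 for the 82 higher and 3982 for all genes tested. The keratins Krt18 (0.25) and Krt19 (0.27), of simple epithelia and urothelium, and the clock repressor Bhlhe41 (0.35) were also higher, and Hif1a, the oxygen-regulated factor, was lower (-0.19). Of the mitochondrial list, 4 fell, mt-Nd2 by 0.38 (adjusted p = 0.00173) and mt-Atp8 by 1.71 (adjusted p = 0.0042) among them. Arntl and Ciart were at 6.85 to 13.7 and 7.15 to 18.9 CPM in untreated old bladders, both overlapping the gavaged and the middle-aged range. Of 17 clock genes, 1 passed against untreated old and 10 had an unadjusted p under 0.05 by edgeR. Their median log2 fold change was 0.27, and 14 values were above 0. The count of 135 was 0 with all 6 groups of the series in the fit, and fell to 56 to 89 when untreated bladder 1, 2, 3, 5 or 6 or water 1 was left out.

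**Figure D5:**
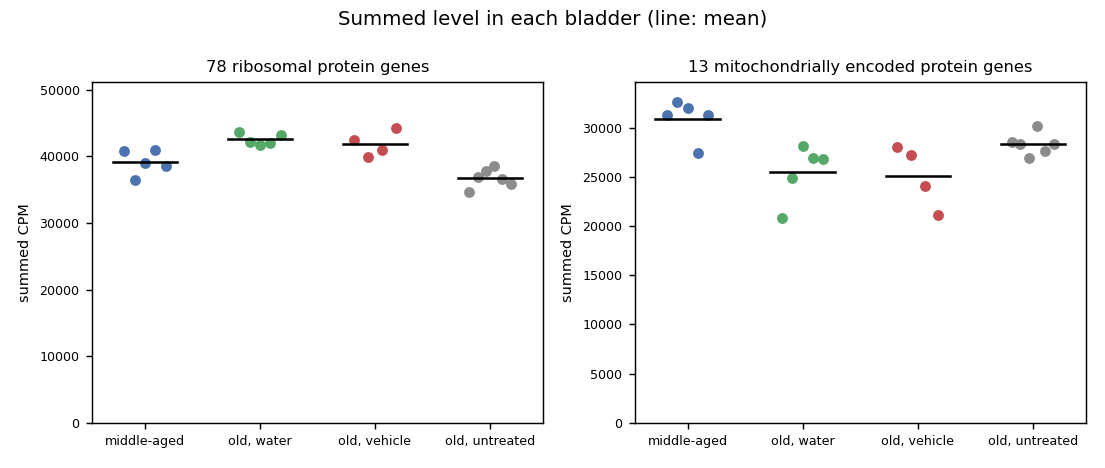
Summed level of 78 ribosomal protein genes and of 13 mitochondrially encoded genes in each bladder (y axes, CPM from 0), with 1 point per bladder. Gavaged bladders reach 39871 to 44242 CPM for the ribosomal genes against 34635 to 38470 CPM in untreated old bladders, and 20828 to 28144 CPM for the mitochondrial genes against 27377 to 32645 CPM in middle-aged bladders.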

How the data were processed

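Total RNA of 14 whole bladders (5 middle-aged, 5 water-gavaged and 4 vehicle-gavaged old) was analysed, with 6 untreated old bladders as a check. Groups follow the labels, and each library is a separate bladder. The authors used STAR 2.7.3 with the mm10 genome and deposited raw counts per gene from Subread featureCounts, without normalization, for 32285 genes, of which 32158 have a symbol. Beside the counts, the authors deposited an other unit, the length in bases of the exons of a gene. A second table that the authors deposited holds log2 values: counts were increased by 1, divided by length, scaled to a total of 100000 per bladder and put on the log2 scale. These were multiplied by 10 on the linear scale to give TPM for limma. The strand setting is not given in the sources used here.

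Counts were compared with edgeR 4.0.16 in R 4.3.3 (filterByExpr, TMM factors, quasi-likelihood test, Benjamini-Hochberg adjusted p under 0.05), each fit holding only the groups compared. CPM used TMM factors over all 32 bladders, without a filter, and overlap was judged on CPM. Genes with too few counts were tested by two-sided exact permutation (smallest possible p 0.000999). Alternatives were DESeq2 1.42.0, other size factors and filters, all 6 groups in a single fit, the replicate number as a block, limma 3.58.1, and each bladder left out. Named genes were the 12 largest rises and 12 largest falls without overlap (4 and 4 in the other comparisons), at most 4 members past the threshold per list and its first gene, and the study's senescence and aging lists. Ranked rises and falls needed a minimum mean CPM in each group, and V, D and J segments and unnamed gene models were left out. Genes outside this rule were chosen after their values were seen. The groups, gene lists and tests were chosen with earlier results of these data known. Some genes are not reported here. The fitting code was tested on simulated counts. Plots used Python 3.11.15 with matplotlib 3.10.9.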

Additional observations from a re-analysis of the deposited data

Results flagged for a closer look

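Of 33 genes shown by bladder, 3 had a bladder far from the others of its group by Dixon's test, in 66 gene and group pairs; chance alone flags about 1 pair in 20. Zbp1 stood at 17.5 CPM in vehicle-gavaged bladder 4, the highest of the 9 gavaged bladders. In middle-aged bladder 2, Gdf5 stood at 1.56 CPM and Npas2 at 14.1 CPM, each the highest of the 5.

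Gavaged and untreated old bladders have the same age, and named genes that passed between them were noted. Higher in gavaged bladders were Trp53rkb (log2 fold change 0.39) and the ribosomal protein genes Rpl39 (0.38), Rps28 (0.37) and Rpl36 (0.33). Lower were the zinc finger genes Zfp991 (-0.67) and Zfp758 (-0.41), the protease gene Tmprss11f (-0.60) and the mitochondrial genes mt-Atp8 (-1.71), mt-Nd2 (-0.38) and mt-Nd6 (-0.31). None of these passed when all 6 groups of the series entered a single fit.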

How the results depend on the processing

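Without any 1 bladder, the 2287 genes of gavaged old against middle-aged bladders ranged from 1428 to 2744. The other settings gave 1931 (replicate number as a block) to 3086 (DESeq2), which is within 1.5 times. The replicate numbers did not pair the bladders (correlations of same-numbered bladders -0.14 to 0.094). Limma on log2(TPM + 0.1) called 39.2% higher, and without a filter on log2(TPM + 1) 36.0%, in place of 64.7% by edgeR. For vehicle-gavaged against middle-aged (780), DESeq2 gave 1678, all 6 groups in a single fit 1345, the replicate block 281 and leaving out 1 bladder 182 to 1759. For water-gavaged (2257) no setting moved the count by over 1.5 times, and vehicle against water gave 0 throughout. For gavaged against untreated old (135), DESeq2 gave 466, no filter 78, all 6 groups in a single fit 0, the replicate block 1 and leaving out 1 bladder 56 to 177. The cause was not tested. Of 135 named genes past the threshold, under 25 alternatives (3345 values), 3089 values stayed past it, 256 lost the call and none changed sign. Acta2, not called, changed sign, to -0.005 (DESeq2 and RLE factors), -0.007 (no filter), -0.003 (at least 10 counts), -0.006 (all 6 groups), -0.057 (limma) and -0.048 (vehicle 1 and 6 both left out, a setting chosen after seeing the data), and ranged from -0.047 to 0.051 when 1 bladder was left out. Adipoq, not called, then ranged from -0.510 to 0.040, the last without middle-aged bladder 4. Near the floor, fitted folds such as those of Ctla4 and Glycam1 rest on few middle-aged counts.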

Other observations

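Scn4a, listed with skeletal muscle genes, was highest in the same 3 gavaged bladders as the B cell gene Ms4a1, an order noticed after the values were seen. Water 2, water 4 and vehicle 4 held 14.7, 14.1 and 13.7 CPM of Scn4a, and the other 6 gavaged bladders 0.965 to 2.21 CPM. Cd79b, which encodes a chain of the B cell receptor, stood at 47.1, 38.8 and 57.4 CPM in these 3 and at 7.07 to 18.2 CPM in the other 6. Ckm, the muscle creatine kinase, stood at 92.0, 102 and 102 CPM in the 3 and at 93.4 to 122 CPM in the other 6. In mm10, Scn4a (chr11:106318592-106353288) and Cd79b (chr11:106311341-106314762) lie on the same strand, 3829 bases apart. Whether Scn4a counts are linked to Cd79b was not tested.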
